A study of Mus musculus with 44 samples.

Results

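The 10 Traj genes described here are joining (J) segments from the middle of the mouse T cell receptor α (TRA) locus, and were followed in tumours treated with AC484, anti-PD-1 or vehicle. They are Traj40, Traj37, Traj34, Traj32, Traj31, Traj30, Traj27, Traj23, Traj22 and Traj21, named in their order along the locus. A CDR3, the receptor loop that meets the peptide, was given to 1 of these genes when its amino acid sequence ended in the last 6 to 8 CDR3 residues that the germline segment encodes. The 10 genes held 11040 of the 35230 distinct TRA CDR3s (31.3%) and 510161 of the 1841575 TRA reads (27.7%). They were 10 of 46 Traj genes with a germline ending in the reference. All 10 passed the minimum of 100 distinct CDR3s over all tumours, as did 43 Traj genes in all.

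The 44 tumours were B16F10 melanomas, grown from a mouse melanoma line under the skin of wild-type C57BL/6 mice (C57BL/6J in the methods of the study): 15 from mice treated with AC484, an inhibitor of the phosphatases PTPN2 and PTPN1, 15 from mice given anti-PD-1, a checkpoint antibody, and 14 labelled vehicle, which the methods of the study describe as untreated. Bulk tissue was taken on day 12, and transcripts of both receptor chains were captured from its RNA and sequenced, with 1 library per tumour. The labels give no dose, schedule, age or sex, and the tissue label could not be checked against marker genes, since the table holds receptor sequences alone. The table also carries no chain, V gene or nucleotide sequence, so the J gene was read from the end of each CDR3.

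An α chain gene is assembled in the thymus by joining a V segment to a J segment. Early joins tend to use J segments at the 5′ end of the cluster, and a cell whose first α chain is not selected can rearrange the same allele again, each time with a J segment further 3′, so that the centre of the cluster is reached between the earliest and the latest joins. Ends are trimmed and bases are added without a template at the joint, and CDR3s that need few added bases are made often and recur between individuals.

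The germline segments carried the assignment, and they are printed with the codons of the ending in capitals. All lie on the plus strand of chromosome 14 of GRCm38 within 20.9 kb, and each is a J segment of 57 to 66 bases that is spliced to the constant exons of Trac. The lower case bases 5′ of the capitals encode further germline residues that trimming can remove, and those 3′ of them encode the framework behind the CDR3.
Traj40 (chr14:54177921-54177981): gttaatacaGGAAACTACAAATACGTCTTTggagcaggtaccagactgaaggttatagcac
Traj37 (chr14:54181518-54181577): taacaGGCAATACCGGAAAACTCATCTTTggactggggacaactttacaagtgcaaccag
Traj34 (chr14:54184699-54184756): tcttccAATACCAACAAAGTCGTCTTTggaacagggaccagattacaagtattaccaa
Traj32 (chr14:54186101-54186166): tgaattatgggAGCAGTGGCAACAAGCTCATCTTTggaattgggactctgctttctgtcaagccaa
Traj31 (chr14:54187895-54187951): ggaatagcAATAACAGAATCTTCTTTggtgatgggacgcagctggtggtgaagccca
Traj30 (chr14:54189866-54189924): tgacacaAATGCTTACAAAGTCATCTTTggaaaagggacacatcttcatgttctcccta
Traj27 (chr14:54192303-54192361): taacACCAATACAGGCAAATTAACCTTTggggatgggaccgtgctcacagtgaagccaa
Traj23 (chr14:54196081-54196140): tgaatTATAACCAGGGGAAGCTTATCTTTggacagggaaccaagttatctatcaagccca
Traj22 (chr14:54197248-54197307): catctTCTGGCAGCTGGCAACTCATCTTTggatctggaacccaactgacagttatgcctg
Traj21 (chr14:54198790-54198846): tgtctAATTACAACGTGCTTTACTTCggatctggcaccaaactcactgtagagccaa

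The endings differ in how much of the segment they ask for, and so in what they miss. Against an assignment in which a CDR3 went to the germline ending it matched over the most residues, with 4 as the minimum, the rule lost 0% of the distinct CDR3s of Traj27, 2.19% of Traj32, 2.42% of Traj40, 3.47% of Traj37 and 8.14% of Traj30. It lost 11.5% to 12.0% of Traj22, Traj31, Traj34 and Traj23, and 17.2% of Traj21. The 0% of Traj27 was fixed in advance and does not measure its loss. Its shorter stretch, NTGKLTF, also ends Traj52, and a CDR3 that matched both equally went to no gene. The CDR3s it lost match the germline over a shorter stretch than the ending, and the order of the genes and the tests of usage, reads, distinct CDR3s at equal reads and length were repeated with them included. Sharing, expansion and the share of whole germline endings were measured with the endings alone.

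Depth differed between the groups before any gene was considered. The TRA count per library lay between 18508 and 315679 reads in AC484-treated tumours, between 10432 and 108156 with anti-PD-1 and between 1466 and 24129 with vehicle. Distinct TRA CDR3s ran from 1153 to 4805, from 538 to 2038 and from 72 to 889 in the same order of groups. Of the vehicle-treated tumours, replicates 1, 5, 6 and 12 had fewer than 250 TRA CDR3s. The libraries carried 4 index primer sets: 12 vehicle-treated tumours in set 1, 10 anti-PD-1-treated and 2 vehicle-treated tumours in set 2, 7 AC484-treated and 5 anti-PD-1-treated tumours in set 3, and 8 AC484-treated tumours in set 4. AC484 and vehicle shared no set, so that index set and treatment cannot be told apart in that comparison.

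The central 10 genes were among the most used of the cluster. Usage, the percent of a tumour's distinct TRA CDR3s that a gene holds, had a median of 3.21% over the 10 genes, with a range from 2.42% for Traj32 to 5.00% for Traj22 as means over 44 tumours. The 7 other tested genes between Traj40 and Traj21 had a median of 1.35% (range 0.617% to 3.90%), the 13 genes upstream of Traj40 had a median of 1.59%, and the 13 genes downstream of Traj21 had a median of 2.06%. Over all 43 genes the median was 2.03%. Rarely and heavily used segments stood next to each other within the stretch.

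**Figure D1:**
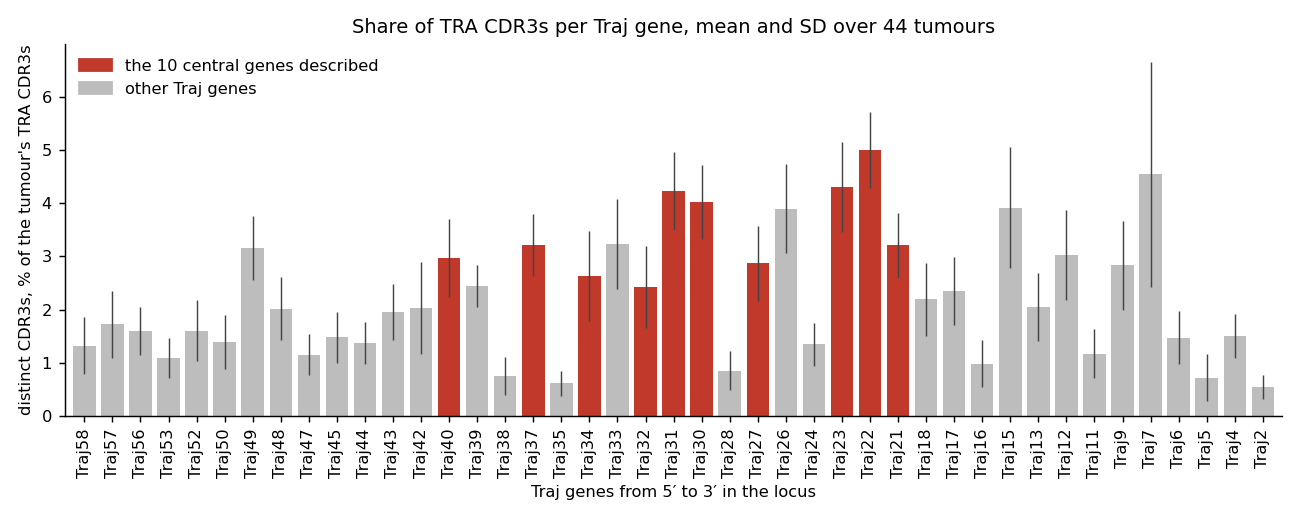
Bars give the mean usage of each Traj gene, as percent of a tumour's distinct TRA CDR3s, in order from the 5′ to the 3′ end of the locus, with lines of 1 SD over 44 tumours. The 10 genes described, in red, ran from 2.42% (Traj32) to 5.00% (Traj22), above most of the genes in grey.

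In the order of all 43 genes by mean usage, Traj22 stood at rank 1, Traj23 at 3, Traj31 at 4, Traj30 at 5, Traj37 at 9, Traj21 at 10, Traj40 at 13, Traj27 at 14, Traj34 at 16 and Traj32 at 18. The members were held to their endings and the other genes to 4 residues, and by the longest match Traj21 stood at rank 8. In the order by endings, neighbours seldom differed. They are close in mean usage by construction, and genes further apart were not compared. A paired permutation test over tumours, with 42 neighbouring pairs tested, found 1 pair that differed: Traj26 over Traj33, neither of them a member, by 0.666 percentage points, higher in 32 of 44 tumours (permutation test, adjusted p = 0.0168, 2.38% of the pairs). The pair depended on the setting. With the longest match in place of the endings it was Traj22 over Traj23, by 0.687 percentage points (permutation test, adjusted p = 0.0433), and by percent of TRA reads it was Traj7 over Traj30 (permutation test, adjusted p = 0.00042).

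Traj40 and Traj37 open the stretch at its 5′ end. Traj40 made up 2.33%, 2.93% and 3.80% of distinct TRA CDR3s as the lowest, median and highest AC484-treated tumour, 1.67%, 2.77% and 3.97% in anti-PD-1-treated tumours, and 0.722%, 3.30% and 4.52% in vehicle-treated tumours. The 3 groups overlapped, and vehicle-treated tumours spread beyond the others at both ends. Traj40 was also the gene whose ending was least often whole: 11.3% of its 1090 CDR3s kept all 10 germline residues, VNTGNYKYVF. The rule asked for 7 of them. Its most widespread CDR3, caasgdTGNYKYVF, with germline residues in capitals and the residues of the V segment and the joint in lower case, was found in 23 tumours and held 3.02% of the TRA reads of anti-PD-1 replicate 1. A different CDR3, cvaVNTGNYKYVF, took 20.1% of the TRA reads of vehicle replicate 11.

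Traj37 made up 2.66%, 3.21% and 3.95% of distinct TRA CDR3s (lowest, median and highest) in AC484-treated tumours, 2.55%, 3.19% and 4.26% in anti-PD-1-treated tumours and 1.39%, 3.13% and 4.24% in vehicle-treated tumours. Of its 1057 CDR3s, 58.0% kept the whole ending TGNTGKLIF, where the rule already asked for 8 of the 9 residues. The Traj37 CDR3 with the most reads, cavsgiTGNTGKLIF, was nearly a single-tumour clone: 3255 of its 3310 reads were in AC484 replicate 3, where it took 5.35% of TRA reads.

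Traj34 and Traj32 were the least used of the 10 genes and the only ones that were missing from a tumour. Traj34 lay between 2.15% and 3.28% of distinct TRA CDR3s in AC484-treated tumours (median 2.59%), between 1.49% and 3.39% in anti-PD-1-treated tumours (median 2.55%) and between 0 and 4.85% in vehicle-treated tumours (median 2.63%). Traj32 lay between 2.00% and 3.67% (median 2.43%), between 1.59% and 3.70% (median 2.41%) and between 0 and 3.97% (median 2.26%) in the same groups. The zeros were in tumours with few distinct CDR3s. Neither gene was found among the 72 TRA CDR3s of vehicle replicate 5, where a count of 0 allows a share of up to 4.17%. Traj32 was not found among the 170 of vehicle replicate 6, which allows up to 1.77%. Such limits cover counting error only.

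For Traj34, 1 clone dominated the reads. The CDR3 calgdlSNTNKVVF had 11532 reads, of which 11467 were in AC484 replicate 1, where it took 18.2% of TRA reads and 97.8% of the gene's reads. It was listed in 12 tumours, and in 11 of them its count lay under 1% of its largest count, a level at which carry-over between libraries of a run was not tested. The most widespread Traj34 CDR3, caaSSNTNKVVF, was small everywhere: 187 reads in 23 tumours, at most 26 in any. Traj32 had the longest CDR3s of the 10 genes, with a mean of 15.2 residues. Its endings were seldom whole: 22.5% kept all 11 germline residues, of which the rule asked for 8. Of its 16 expanded CDR3s, meaning those with at least 1% of a tumour's TRA reads, 3 were expanded in 4 tumours each: caasgdYGSSGNKLIF, calsedYGSSGNKLIF and camrgNYGSSGNKLIF.

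**Figure D2:**
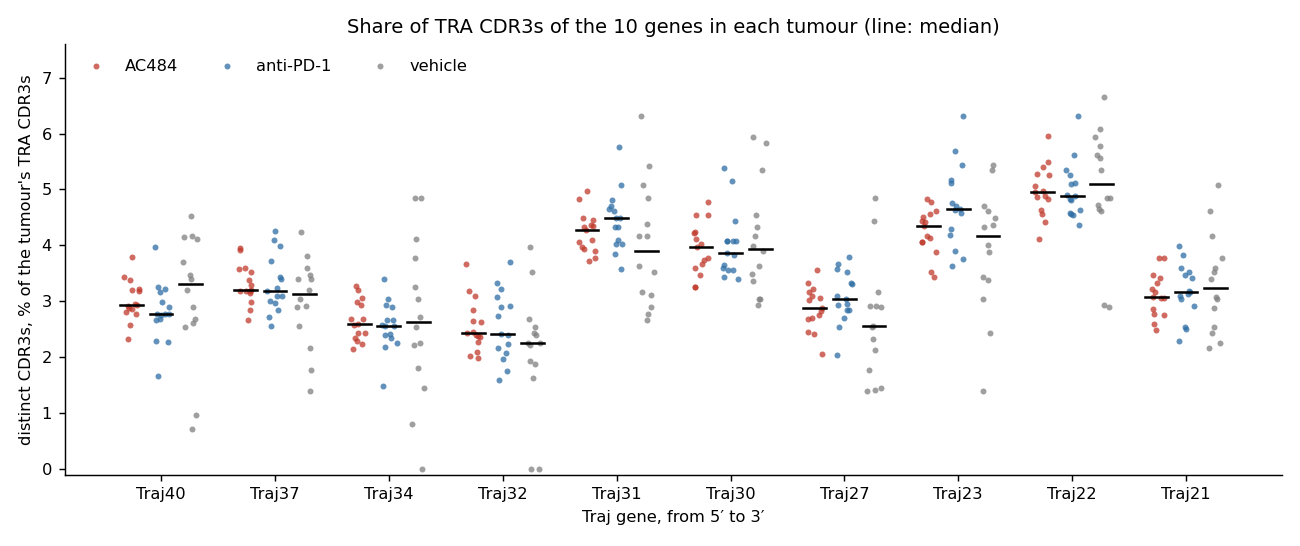
Points give the usage of each of the 10 genes in each tumour, as percent of its distinct TRA CDR3s, with AC484-treated tumours (n = 15) left, anti-PD-1-treated tumours (n = 15) in the middle and vehicle-treated tumours (n = 14) right, and lines at the medians. The groups overlap for every gene, and vehicle-treated tumours, with the fewest CDR3s, spread the most, between 0 and 4.85% for Traj34.

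Traj31 and Traj30, near the middle, ranked high in every group. Traj31 lay between 3.73% and 4.97% of distinct TRA CDR3s in AC484-treated tumours (median 4.27%), between 3.58% and 5.76% in anti-PD-1-treated tumours (median 4.49%) and between 2.67% and 6.31% in vehicle-treated tumours (median 3.90%). Its CDR3s were the shortest of the 10 genes, with a mean of 12.7 residues. Its largest clone, caasmedSNNRIFF, took 15.0% of the TRA reads of AC484 replicate 3, with 9096 of its 9299 reads there. It was listed in 12 tumours, and in 10 of them its count lay under 1% of its largest count. None of the 12 was vehicle-treated, the group with the lowest TRA read counts. The CDR3 camreNSNNRIFF was spread over 24 tumours with at most 57 reads in any. Traj30 lay between 3.25% and 4.77% (median 3.98%) in AC484-treated tumours, between 3.41% and 5.39% (median 3.87%) under anti-PD-1 and between 2.94% and 5.93% (median 3.94%) in vehicle-treated tumours. By reads Traj30 was the largest of the 10 genes, with 118198 reads over all tumours.

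Traj27 was moderately used, with 2.05% to 3.56% of distinct TRA CDR3s in AC484-treated tumours (median 2.88%), 2.05% to 3.79% in anti-PD-1-treated tumours (median 3.05%) and 1.39% to 4.85% in vehicle-treated tumours (median 2.55%). CDR3s found in 10 or more tumours held 4.49% of its reads, the lowest share of the 10. The clone cavrdNTNTGKLTF took 15.6% of the TRA reads of AC484 replicate 10, with 6307 of its 6325 reads there, and in vehicle replicate 12 another Traj27 CDR3 took 27.4%.

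Traj23, Traj22 and Traj21 close the stretch at its 3′ end. Traj23 lay between 3.43% and 4.84% of distinct TRA CDR3s in AC484-treated tumours (median 4.34%), between 3.64% and 6.32% in anti-PD-1-treated tumours (median 4.65%) and between 1.39% and 5.44% in vehicle-treated tumours (median 4.17%). Its most widespread CDR3, caargYNQGKLIF, was in 35 tumours with no more than 83 reads in any, whereas cavrrNYNQGKLIF had 4607 of its 4663 reads in AC484 replicate 14, or 17.9% of TRA reads there. Traj22, the most used gene of the cluster, lay between 4.12% and 5.96% (median 4.95%) in AC484-treated tumours, between 4.36% and 6.32% (median 4.89%) under anti-PD-1 and between 2.90% and 6.65% (median 5.10%) in vehicle-treated tumours. Its CDR3 caaaSSGSWQLIF was both widespread and large: it was in 38 tumours and took 9.39% of the TRA reads of anti-PD-1 replicate 2, although in 28 of the 38 its count lay under 1% of that maximum.

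Traj21 lay between 2.48% and 3.78% of distinct TRA CDR3s in AC484-treated tumours (median 3.08%), between 2.30% and 3.99% in anti-PD-1-treated tumours (median 3.17%) and between 2.17% and 5.08% in vehicle-treated tumours (median 3.24%). Of its 1072 CDR3s, 69.4% held the whole ending SNYNVLYF, where the rule already asked for 7 of the 8 residues. That was the highest share among the genes described, but it was taken after the largest loss. Of 1294 Traj21 CDR3s by the longest match, the rule left out 222 (17.2%), which match the germline over a shorter stretch. The share therefore does not show that Traj21 kept its germline residues better than the other genes. The shortest of the named CDR3s, camSNYNVLYF with 11 residues, took 7.97% of the TRA reads of anti-PD-1 replicate 14.

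Whether treatment changed the use of these genes was asked first with numbers of distinct CDR3s, which count a clone once whatever its size. The central 10 together made up 35.0% ± 1.08 of distinct TRA CDR3s in AC484-treated tumours, 35.7% ± 1.23 in anti-PD-1-treated tumours and 33.9% ± 3.69 in vehicle-treated tumours (SD, n = 15, 15 and 14). With edgeR's quasi-likelihood test and Benjamini-Hochberg adjustment over 43 Traj genes, no member passed an adjusted p of 0.05 in any of the 3 comparisons. The background was 4 of 43 genes for AC484 against vehicle (9.3%), 4 of 43 for AC484 against anti-PD-1 (9.3%) and 1 of 43 for anti-PD-1 against vehicle (2.33%). DESeq2 called none of the 10 genes either. At an unadjusted p under 0.05, edgeR gave 0, 1 and 2 of the 10 genes in the same comparisons, beside 8, 10 and 4 of all 43.

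The intervals state how large a shift could have been missed. For AC484 against vehicle the log2 ratios of the 10 genes ran from -0.10 for Traj21 to 0.12 for Traj31 and Traj32. The widest 95% interval reached from -0.18 to 0.41, for Traj32. For AC484 against anti-PD-1 the ratios ran from -0.14 to 0.05. The lowest was Traj23, at 4.25% ± 0.415 in AC484-treated and 4.72% ± 0.739 in anti-PD-1-treated tumours (log2 ratio -0.14, SE 0.06, edgeR adjusted p = 0.128). For anti-PD-1 against vehicle the ratios ran from -0.09 to 0.24, with Traj23 (0.24, SE 0.10) and Traj31 (0.22, SE 0.10) at the top, both with an edgeR adjusted p of 0.466. The 3 comparisons share tumours, so their values are not independent of each other. The median log2 ratio of the 10 genes was 0.00 for AC484 against vehicle, -0.03 for AC484 against anti-PD-1 and 0.02 for anti-PD-1 against vehicle, beside 0.10, -0.01 and 0.01 over all 43.

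**Figure D3:**
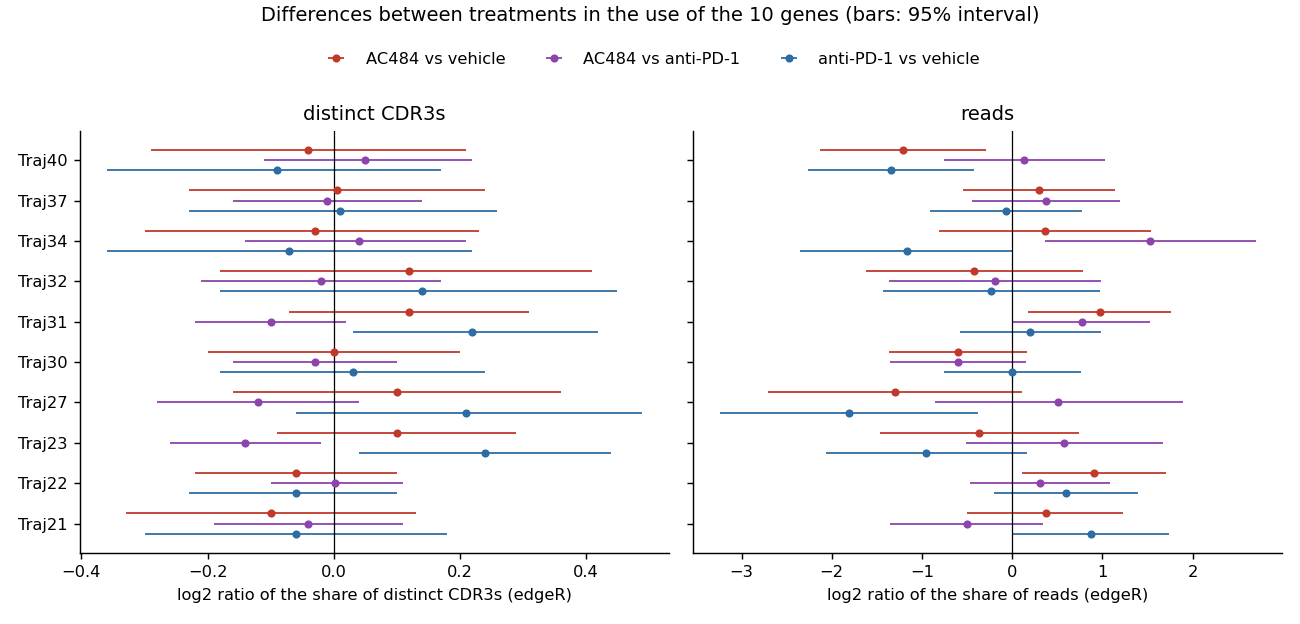
Points give the log2 ratio of each gene's share between treatments from edgeR, by distinct CDR3s (left panel) and by reads (right panel, wider axis), with 95% intervals. By distinct CDR3s no ratio lies beyond -0.14 or 0.24, while by reads they reach -1.81 (Traj27, anti-PD-1 against vehicle) and 1.53 (Traj34, AC484 against anti-PD-1).

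Reads weight a gene by the size of its clones, and there the spread between tumours of a group was wide. In bulk RNA, more T cells of a clone and more receptor RNA per cell cannot be told apart. The central 10 held 32.7% ± 11.4 of TRA reads in AC484-treated tumours, 30.4% ± 8.93 in anti-PD-1-treated tumours and 28.2% ± 13.8 in vehicle-treated tumours (SD). For AC484 against vehicle edgeR called 6 of 43 genes (14%) and none of these 10, with 12 and 3 at an unadjusted p under 0.05. DESeq2, and edgeR without TMM factors (the scaling of library sizes it uses here otherwise), each called 6 of 43 genes there (14%), among them Traj31, higher. Traj31 held 4.32% ± 4.30 of TRA reads in AC484-treated tumours and 1.78% ± 0.891 in vehicle-treated tumours. Its log2 ratio was 0.97 (SE 0.40), with an adjusted p of 0.0947 by edgeR with TMM factors. Its AC484 values include 16.4% in replicate 3, of which 15.0% was 1 clone, and 10.7% in replicate 8. For AC484 against anti-PD-1 edgeR called 2 of 43 genes (4.65%), again none of the 10, and the largest ratio was that of Traj34 (1.53, SE 0.60, edgeR adjusted p = 0.193), whose AC484 values hold the clone of replicate 1.

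With TMM factors, edgeR called 1 member by reads: Traj40, for anti-PD-1 against vehicle, where 8 of 43 genes were called (18.6%), 5 of them lower (11.6%). Traj40 held 0.350%, 1.32% and 3.73% of TRA reads in the lowest, median and highest anti-PD-1-treated tumour, against 0.266%, 1.41% and 21.01% in vehicle-treated tumours. The medians lay close together, and vehicle replicate 11 stood far above the rest. The log2 ratio was -1.34 (SE 0.47, edgeR adjusted p = 0.0392). In vehicle replicate 11, 95.6% of the Traj40 reads were those of cvaVNTGNYKYVF, and without that tumour the log2 ratio was -0.80 (edgeR adjusted p = 0.175). Without TMM factors edgeR called no gene in this comparison (10 at an unadjusted p under 0.05), and the Traj40 ratio was -1.13 (edgeR adjusted p = 0.145). DESeq2 called 11 of the 43 genes, among them Traj40, lower, and Traj21, higher. Within index set 2, which holds 10 anti-PD-1-treated and 2 vehicle-treated tumours, the ratio turned to 1.18 (edgeR adjusted p = 0.665).

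The largest CDR3 of a gene often made up much of its reads in a tumour. The median share of a gene's reads in its largest CDR3 ran from 23.7% (Traj37) to 50.6% (Traj30) over AC484-treated tumours, from 22.1% (Traj34) to 44.9% (Traj32) over anti-PD-1-treated tumours and from 29.1% (Traj22) to 55.4% (Traj40) over vehicle-treated tumours.

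Counts of distinct CDR3s per gene followed the depth, and were compared after each tumour was drawn to 1466 TRA reads, the smallest total, 100 times. At equal reads the central 10 gave 124.5 ± 33.7 distinct CDR3s in AC484-treated tumours, 119.4 ± 20.8 in anti-PD-1-treated tumours and 75.4 ± 37.2 in vehicle-treated tumours. For AC484 against vehicle 28 of 43 genes were higher by a permutation test (65.1%), among them all of the 10 but Traj40. For anti-PD-1 against vehicle 20 of 43 were higher (46.5%), among them Traj37, Traj32, Traj31, Traj30, Traj27, Traj23 and Traj22. For AC484 against anti-PD-1 the permutation test called none of 43 (0%), with 1 gene at an unadjusted p under 0.05, no member. Limma on log2 values at equal reads called more genes in the comparisons with vehicle, all of them higher: 35 for AC484, with all 10 members, and 30 for anti-PD-1, with every member but Traj40. It called none for AC484 against anti-PD-1, with 0 at an unadjusted p under 0.05.

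The differences were not particular to these genes, and a difference in numbers of CDR3s is larger for a gene that is used more. At equal reads all TRA CDR3s together ran from 136 to 488.4 in AC484-treated, from 234.7 to 424.8 in anti-PD-1-treated and from 68.9 to 384.1 in vehicle-treated tumours. Traj30 showed the largest difference among the 10 genes. At equal reads it had 7.00, 15.5 and 23.2 distinct CDR3s in the lowest, median and highest AC484-treated tumour, 11.1, 16.4 and 23.5 in anti-PD-1-treated tumours and 2.77, 9.74 and 18.5 in vehicle-treated tumours. Most tumours of both treatments lay above the vehicle median, and the ranges overlapped. The difference was 6.95 CDR3s (SE 1.58, permutation test, adjusted p = 0.00413) for AC484 against vehicle and 7.23 (SE 1.41, permutation test, adjusted p = 0.00172) for anti-PD-1 against vehicle. Traj40, the member that did not pass for AC484 against vehicle, was at 10.1 ± 3.54 in AC484-treated and 6.91 ± 4.37 in vehicle-treated tumours (permutation test, adjusted p = 0.0551), and limma on log2 values called it.

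Most of these calls were lost without the 4 vehicle-treated tumours that held the fewest distinct TRA CDR3s. They were picked by CDR3s and not by reads. Vehicle replicates 1, 6 and 12 had 14808, 8306 and 12366 TRA reads, while vehicle replicate 10 was kept with 1466. At equal reads vehicle replicates 1, 5, 6 and 12 gave 82.28, 68.9, 131.4 and 96.45 distinct TRA CDR3s, the lowest of their group. Leaving them out removed the lowest values from 1 group, so it is no check on depth. Without the 4 vehicle-treated tumours under 250 TRA CDR3s, the permutation test called 0 of 43 genes for AC484 against vehicle (14 at an unadjusted p under 0.05, 4 of them members) and 3 for anti-PD-1 against vehicle, all of them members: Traj31, Traj30 and Traj23. For Traj30 the AC484 difference was then 4.91 CDR3s (permutation test, adjusted p = 0.0858). Within index set 2, with its 2 vehicle-treated tumours, the exact permutation test called no gene for anti-PD-1 against vehicle (8 at an unadjusted p under 0.05, 5 of them members), and the Traj30 difference was 8.99 (exact permutation test, adjusted p = 0.163).

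Sharing was measured as the percent of a gene's distinct CDR3s in a tumour that at least 1 of the other 43 tumours also held, for tumours with 5 or more CDR3s of the gene. Traj30 CDR3s were shared less in AC484-treated tumours, at 53.4%, 64.4% and 77.4% (lowest, median and highest, n = 15), against 50%, 81.0% and 100% in vehicle-treated tumours (n = 13). The difference of the means was -13.2 percentage points (SE 4.23, permutation test, adjusted p = 0.0403), and 4 of 42 genes were called in that comparison (9.52%). Against anti-PD-1, Traj27 CDR3s were shared less in AC484-treated tumours, at 50.3%, 56.1% and 70.6% against 52.7%, 68.2% and 81.8% (difference -10.8 percentage points, SE 2.53, permutation test, adjusted p = 0.0155), the 1 gene of 43 that was called (2.33%). Between anti-PD-1 and vehicle 0 of 42 were called by the permutation test (0%), with 3 at an unadjusted p under 0.05, of which 1 was a member.

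Both calls were lost when tumours were drawn to equal TRA reads. The difference was then -9.43 percentage points for Traj30 (permutation test, adjusted p = 0.591) and -2.08 for Traj27 (permutation test, adjusted p = 1). The Traj30 call also ended when tumours needed 10 CDR3s of the gene (-11.5, permutation test, adjusted p = 0.142) and when counts under 1% of a CDR3's largest count were left out (-8.29, permutation test, adjusted p = 0.262).

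CDR3 length, measured as the mean over a gene's distinct CDR3s in a tumour, moved for a pair of members. Traj30 CDR3s averaged 13.4 ± 0.136 residues in AC484-treated and 13.4 ± 0.109 in anti-PD-1-treated tumours (n = 15 each), against 13.7 ± 0.261 in vehicle-treated tumours (n = 13). The differences from vehicle were -0.271 residues (SE 0.0721, limma adjusted p = 0.0107) for AC484 and -0.253 (SE 0.0721, limma adjusted p = 0.0218) for anti-PD-1. Traj22 went the other way, at 13.9 ± 0.134 in AC484-treated and 13.7 ± 0.225 in vehicle-treated tumours (0.256 residues, SE 0.0683, limma adjusted p = 0.0107). Of 43 genes, limma called 2 for AC484 against vehicle (4.65%), both of them members, 2 for anti-PD-1 against vehicle (4.65%), 1 in each direction (2.33%), and 0 for AC484 against anti-PD-1 (0%), where no gene had an unadjusted p under 0.05.

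Vehicle-treated tumours had the fewest CDR3s behind each mean and the widest spread, and the length calls did not hold when each mean was weighted by the number of CDR3s behind it. Limma then called no gene (6, 2 and 2 at an unadjusted p under 0.05 in the 3 comparisons), and the differences were -0.233 residues for Traj30 (adjusted p = 0.0987) and 0.220 for Traj22 (adjusted p = 0.0987) for AC484 against vehicle, and -0.224 for Traj30 (adjusted p = 0.190) for anti-PD-1 against vehicle. With the longest match in place of the endings, the limma adjusted p was 0.0509 for Traj30 and Traj22 alike. With the index set as a covariate the Traj22 difference turned to -0.137 residues (limma adjusted p = 0.881).

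Over all tumours, CDR3s of the central 10 were found in more than 1 tumour more often than those of the other Traj genes. Of 11040 distinct CDR3s, 7738 (70.1%) were in 1 tumour, 3101 in 2 to 9 tumours and 201 (1.82%) in 10 or more. For the other Traj genes 75.7% of CDR3s were in 1 tumour and 0.958% in 10 or more. These shares are descriptions and were not tested. The 2 sides were also assigned differently. The central 10 held only CDR3s with the ending that the rule asks for, while the other Traj genes kept matches down to 4 germline residues. Left out were 1044 distinct CDR3s that match a central gene over a shorter stretch, and their sharing was not measured. The shares of the 2 sides are therefore not on 1 scale. A count of 1 read was enough to place a CDR3 in a tumour. Of the 12 tumours with calgdlSNTNKVVF, 11 had it under 1% of its largest count, and of the 35 with caargYNQGKLIF, 0 did. The share in 10 or more tumours ran from 0.551% for Traj40 to 3.79% for Traj22, and the widest CDR3s were in 42 tumours for Traj30, 38 for Traj22 and 35 for Traj23, against 16 to 24 for the other 7 genes.

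The widely shared CDR3s, with any count taken as presence, had fewer residues outside the germline J segment. Among the central 10, CDR3s in 10 or more tumours had 4.59 ± 0.929 residues before the germline J residues, against 5.65 ± 1.14 for CDR3s in 1 tumour (SD over CDR3s). The whole germline ending was kept by 76.1% of the CDR3s in 10 or more tumours, 48.7% of those in 2 to 9 and 40.6% of those in 1. For Traj30 all 24 of the most widely shared CDR3s kept it, against 39.9% of those in 1 tumour, and for Traj21 and Traj22 it was 94.4% and 91.8%. Other genes showed less of this pattern: for Traj23 the share was 56.8%, against 50.1% in 1 tumour, and none of the 6 most shared Traj40 CDR3s kept the whole ending. Between genes these shares are not on 1 scale. The rule asked for 7 of the 10 germline residues of Traj40 and for 8 of the 9 of Traj23.

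**Figure D4:**
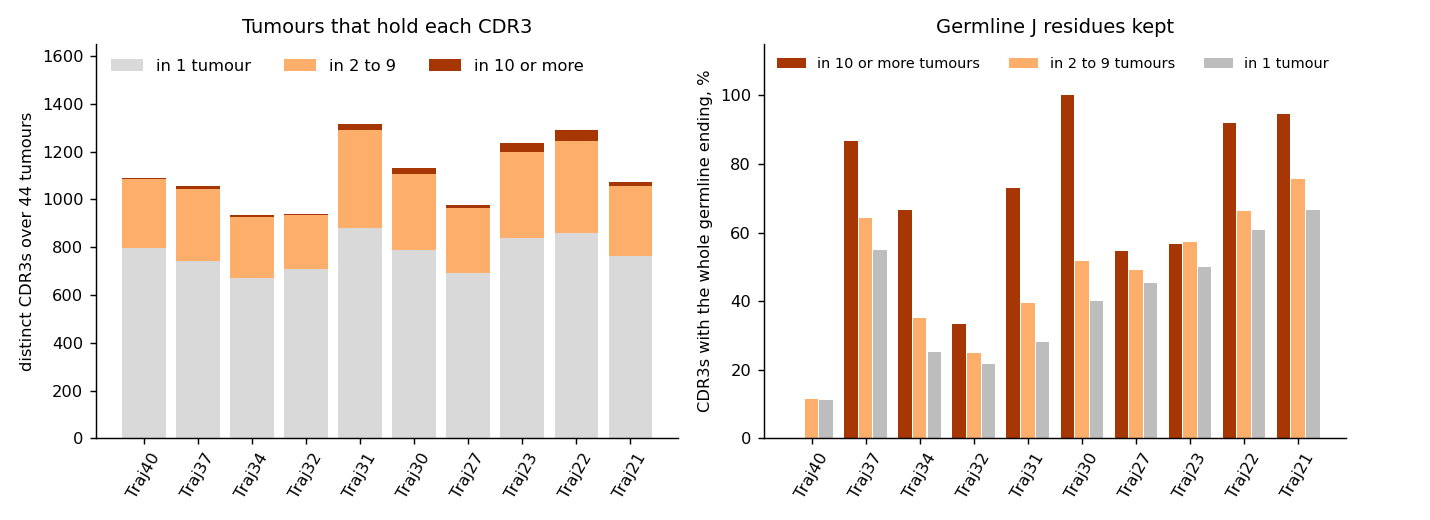
The left panel gives the number of distinct CDR3s of each gene by how many of 44 tumours held them, and the right panel the percent of them that kept the whole germline ending. For Traj30 the share is 100% among CDR3s in 10 or more tumours, while Traj40 has none.

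The V side of the CDR3 looked alike across these genes. By their first 3 residues, CDR3s of the central 10 started with CAA in 25.3%, with CAL in 25.4%, with CAV in 18.1% and with CAM in 9.61%. For the other Traj genes the shares were 27.1%, 25.1%, 17.4% and 9.28%. Along the locus CAA starts made up 29.7% of Traj40 CDR3s and 22.3% of Traj23 CDR3s, and 29.2% and 25.5% of the CDR3s of genes upstream and downstream of the stretch. A start is shared by many V segments and names none of them.

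Expanded CDR3s of the 10 genes, those with at least 1% of a tumour's TRA reads, were found in 43 of 44 tumours. There were 202 such entries, 63 in AC484-treated, 78 in anti-PD-1-treated and 61 in vehicle-treated tumours, from 144 distinct CDR3s. All TRA CDR3s together gave 237, 210 and 184 such entries in the same order. Of the 144, 16 were expanded in 2 or more tumours. Traj30 had 9 of the 16, beside 3 of Traj32 and 1 each of Traj40, Traj31, Traj23 and Traj22.

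Traj30 held 71 of the 202 entries, from 27 CDR3s in 35 tumours, of which 10 were AC484-treated, 14 anti-PD-1-treated and 11 vehicle-treated. The 9 that were expanded in 2 or more tumours were chosen after their values were seen and are given as a description. All 9 ended in the whole germline sequence DTNAYKVIF, after 4 or 5 residues from the V segment and the joint, and they held 59.4% of all Traj30 reads. Together they took 0.347%, 1.85% and 6.94% of TRA reads in the lowest, median and highest AC484-treated tumour, 1.14%, 6.01% and 16.9% in anti-PD-1-treated tumours and 0.441%, 2.92% and 18.2% in vehicle-treated tumours. Of all 27 expanded Traj30 CDR3s 81.5% kept the whole ending, against 44.5% of all Traj30 CDR3s.

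The most widespread CDR3 of the 10 genes, caasgDTNAYKVIF, was in 42 of 44 tumours and alone held 33.1% of Traj30 reads. Its percent of TRA reads had a median of 0.360% in AC484-treated tumours (highest 5.79%), 1.05% in anti-PD-1-treated tumours (highest 13.9%) and 0.213% in vehicle-treated tumours (highest 2.24%). It was expanded in 5 AC484-treated, 8 anti-PD-1-treated and 2 vehicle-treated tumours, in all 4 index sets. In 25 of the 42 tumours its count lay under 1% of its largest count, 15042 reads in anti-PD-1 replicate 11.

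A CDR3 that differs from it in the residues before the germline ending, calghDTNAYKVIF, was chosen after its values were seen. It was in 41 tumours and held 10.3% of Traj30 reads. It was expanded in no AC484-treated tumour, where its highest value was 0.766% of TRA reads, but in 7 anti-PD-1-treated tumours (highest 4.58%) and 7 vehicle-treated tumours (highest 6.88%). The medians were 0.307%, 0.848% and 0.966% in the same order. Within index set 3 its median was 0.248% in 7 AC484-treated and 0.848% in 5 anti-PD-1-treated tumours, of which 0 and 2 held it at 1% or more. The 7 vehicle-treated tumours that held it at 1% or more were all in index set 1 (7 of 12), which holds no AC484-treated tumour. In set 2 it was 0 of 2 vehicle-treated and 5 of 10 anti-PD-1-treated tumours. Since the CDR3 was picked for the number of tumours that held it at 1% or more, no test of it is given.

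**Figure D5:**
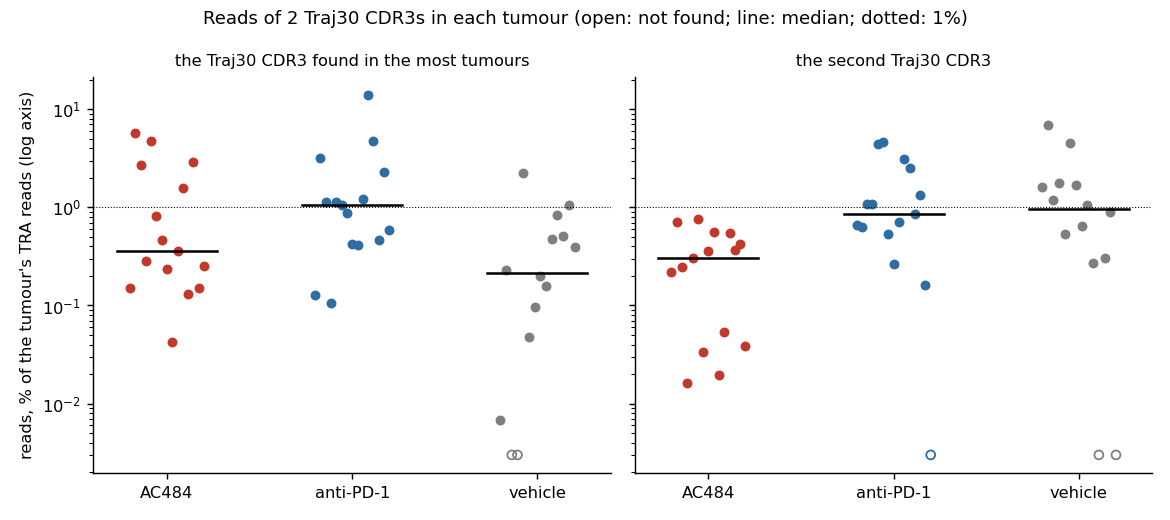
Points give the percent of each tumour's TRA reads, on a log axis, for caasgDTNAYKVIF (left panel) and calghDTNAYKVIF (right panel), with lines at the medians, open points for tumours without it and a dotted line at 1%. All 15 AC484-treated tumours lie below 1% for the second CDR3, where 7 anti-PD-1-treated and 7 vehicle-treated tumours lie above it.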

How the data were processed

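TCR libraries of 44 B16 tumours were analysed, 1 per tumour. The authors amplified receptor transcripts of both chains (SMARTer Mouse TCR a/b Profiling kit, Illumina MiSeq) and used MiXCR to build clonotypes defined by their amino acid CDR3. MiXCR's parameters are not given in the sources used here. The submitters' processing notes name the mm10 build. The deposited values are counts of reads per amino acid CDR3 and tumour, both chains together, without molecular identifiers and not normalized for depth. The other deposited column used, on no common scale with the counts, is each library's concentration in nM, by which no value was adjusted. Table IDs of untreated tumours were matched by number to the samples labelled vehicle, as the methods name that group.

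The chain and J gene of each CDR3 were taken from the germline J ending of GRCm38 (RefSeq genome, GENCODE annotation) that it matched over the most residues, 4 as the minimum; CDR3s with 1 of the 10 endings went to that gene. Distinct CDR3s and reads per gene were tested with edgeR's quasi-likelihood test (TMM factors), lengths with limma, and distinct CDR3s at equal TRA reads and sharing with two-sided permutation tests (100000 resamples, or exact for groups of fewer than 10 tumours). All were adjusted by Benjamini-Hochberg over all Traj genes with at least 100 distinct CDR3s, at a threshold of 0.05. Scripts were tested on simulated data. Labels call the samples replicates of a group and do not say how mice were housed or batched, so p-values measure the spread between these tumours. Intervals for counts of 0 use 3 counts. Named are all 10 genes and, for each, the CDR3 in the most tumours and the CDR3 with the most reads; other named CDR3s were chosen after their values were seen. The genes and lists were chosen with earlier results of these data known. Alternatives were no TMM factors, DESeq2, the longest match, other minimums, CDR3s of 1 read left out, equal reads, a replicate block, tumours left out, largest clones left out and read weights; the index sets, the small libraries, vehicle replicate 11 and weights by number of CDR3s were added after seeing the data. The authors' clone fractions were not used. Versions were R 4.3.3, edgeR 4.0.16, DESeq2 1.42.0, limma 3.58.1, Python 3.11.15, pandas 2.3.3 and NumPy 2.4.6.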

Additional observations from a re-analysis of the deposited data

Results flagged for a closer look

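Within the 5 anti-PD-1-treated tumours of index set 3, 2 tumours stood far from the other 4 in usage. In anti-PD-1 replicate 12 the central 10 genes made up 33.8% of distinct TRA CDR3s, against 36.1% to 36.6% in the other 4. In anti-PD-1 replicate 13, Traj34 made up 1.49% of distinct TRA CDR3s (2.66% to 3.04% in the other 4), Traj30 5.39% (3.57% to 4.08%) and Traj22 6.32% (4.36% to 4.89%). In each case the gap to the nearest tumour was large against the range of the group by Dixon's test. Chance alone sets apart about 1 in 20 groups, and 4 of 44 tests set a tumour apart here. The 44 tests took the 10 genes and their sum in the same few groups of tumours, so they are not independent. All 4 fell in this 1 group. Anti-PD-1 replicate 13 had 538 TRA CDR3s, the fewest of its treatment, and 8 of them were Traj34.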

How the results depend on the processing

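No member was called by distinct CDR3s in any setting of that test. Counts of Traj genes called are given for AC484 against vehicle, AC484 against anti-PD-1 and anti-PD-1 against vehicle. By distinct CDR3s (4, 4 and 1), equal reads gave 1, 0 and 0, the index set as a covariate 0, 1 and 0, set 3 alone 1 for the second and set 2 alone 0 for the third; leaving out 1 tumour gave 3 to 4, 3 to 6 and 1. By reads (6, 2 and 8), the index set gave 1, 0 and 1, and leaving out each gene's largest clone 2, 0 and 1. Leaving out the 4 small libraries, meaning the vehicle-treated tumours under 250 TRA CDR3s, gave 3, 1 and 1. Without TMM factors the last 2 were 0 and 0; the second was 1 with DESeq2 and 0 with the longest match, within set 3 and without vehicle replicate 11, and the third was 2 within set 2. At equal reads (28, 0 and 20), no draw gave 43 in each, and without the 4 tumours under 250 TRA CDR3s the first and last were 0 and 3. Set 2 gave 0, where the exact test with 2 vehicle-treated tumours could hardly call a gene. By sharing (4, 1 and 0), the first was 0 with a minimum of 10 CDR3s, carry-over left out or equal reads and 1 without the small libraries, and the second 0 with equal reads or within set 3. By length (2, 0 and 2), weights by reads gave 1, 2 and 0, weights by number of CDR3s 0, 0 and 0, the longest match, or no small libraries, 0 and 1 for the first and last, the index set 0 and 0, and set 2 alone 0 for the last. Traj40 reads for anti-PD-1 against vehicle turned to 1.18 with the index set as a covariate and within set 2, and Traj22 length for AC484 against vehicle to -0.137 with the index set. The cause was not tested.

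With the replicate number as a block, usage called 4, 5 and 1 genes, reads 1, 0 and 0 and length 2, 0 and 0. The numbers do not pair the tumours: of 43 pairs with the same number, 9 had correlated deviations above 0.1 (median r -0.0384, range -0.374 to 0.553).

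Depth limits these results most in vehicle-treated tumours, where a gene rests on few CDR3s and on 1466 to 24129 TRA reads. AC484 and vehicle shared no index set, and anti-PD-1 and vehicle shared 1 with 2 vehicle-treated tumours in it. Reads without molecular identifiers are not molecules, amino acid CDR3s merge different nucleotide sequences, and a J gene read from an ending leaves out CDR3s trimmed into it.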
